A study of Mus musculus with 9 samples.

Results

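Laminins, nidogens and the basement membrane proteoglycans agrin and perlecan were followed in sorted podocytes, the epithelial cells that cover the glomerular capillaries of the kidney. The 10 genes were Lama1, Lama2, Lama4, Lama5, Lamb2, Lamc1, Nid1, Nid2, Agrn and Hspg2, of 18193 genes on the array with a symbol of their own. Members were all probe sets whose platform symbol was exactly one of these names, which gave 18 probe sets of 45037 tested. The groups were 5 OVE26 diabetic mice and 4 normal FVB mice, with 1 array per mouse. The OVE26 mice carried the genotype label OVE-GFP. The FVB mice were labelled wild type, and all were on the FVB strain and aged 3 to 4 months. OVE26 is a transgenic line whose diabetes comes from a calmodulin transgene driven by an insulin promoter in pancreatic beta cells, so podocytes meet the disease from outside. Podocytes with green fluorescence were sorted from trypsin-treated glomeruli, and whether the FVB mice carried the same reporter is not stated in their genotype label.

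A basement membrane is a sheet of laminin and type IV collagen networks held together by nidogens and proteoglycans. Laminins are trimers of an alpha, a beta and a gamma chain, and the trimer of the mature glomerular basement membrane holds the chains encoded by Lama5, Lamb2 and Lamc1. Podocytes and endothelial cells both deposit it. Nidogens bridge the gamma chain to collagen, agrin is the main heparan sulphate proteoglycan of the glomerular basement membrane, and perlecan, encoded by Hspg2, belongs mostly to the mesangial matrix and other basement membranes.

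Lama5 and Lamb2, which encode chains of that trimer, and Nid1, whose means were higher in OVE26 while theirs were lower, are shown by the DNA upstream of their annotated starts. Sequences are from RefSeq on GRCm38.p6, whose promoter table held 6 of the 10 members. Each covers 190 bases, from 250 to 61 bases before the start, and capitals mark the GC box GGGCGG or its reverse complement CCGCCC.
Lama5 chr2:180225920-180226109 (- strand): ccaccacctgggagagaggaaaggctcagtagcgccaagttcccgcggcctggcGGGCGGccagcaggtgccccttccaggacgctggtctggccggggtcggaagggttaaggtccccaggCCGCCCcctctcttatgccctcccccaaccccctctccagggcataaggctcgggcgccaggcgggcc
Lamb2 chr9:108479612-108479801 (+ strand): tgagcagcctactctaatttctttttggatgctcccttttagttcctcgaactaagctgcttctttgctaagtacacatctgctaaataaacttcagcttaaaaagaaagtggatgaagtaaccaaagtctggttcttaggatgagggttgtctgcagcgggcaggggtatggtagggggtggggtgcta
Nid1 chr13:13437352-13437541 (+ strand): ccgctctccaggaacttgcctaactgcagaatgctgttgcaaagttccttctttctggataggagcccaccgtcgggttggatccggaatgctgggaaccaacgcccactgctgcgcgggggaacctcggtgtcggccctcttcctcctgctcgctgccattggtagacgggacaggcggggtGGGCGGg
The Lama5 stretch held 2 GC boxes, the Nid1 stretch 1 and the Lamb2 stretch 0. Of the members not shown, Agrn held 9 in a stretch outside its gene and 0 in a stretch inside it. Hspg2 held 5 and Lama2 held 0. Of 32851 promoter stretches of the same length 22.8% held at least 1. GC content was 71.1% for Lama5, 44.7% for Lamb2 and 62.6% for Nid1, against a median of 51.6% over all promoters. A match describes the letters only.

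Values are log2 intensities, and each difference is OVE26 minus FVB. The median array level lay between 5.07 and 5.15, and the 25th percentile, taken here as background, averaged 3.31. Pearson's r over probe sets, which are not independent, ran from 0.960 to 0.985 among OVE26 arrays and from 0.980 to 0.989 among FVB arrays. OVE26 2 had the lowest median r with its own group (0.970). Its proximal tubule score, the mean centred log2 level of 12 marker genes, was -1.96, against -0.35 to 0.82 in the other 8 arrays. The podocyte label held for the bright podocyte genes. Podxl, a sialomucin gene, averaged 12.99 ± 0.04 (SD, n = 5) in OVE26, against 13.10 ± 0.02 (SD, n = 4) in FVB arrays. Nphs1, the nephrin gene, averaged 11.40 ± 0.29 (SD, n = 5) in OVE26, against 11.90 ± 0.23 (SD, n = 4) in FVB arrays. Synpo, for the actin-binding synaptopodin, averaged 12.89 ± 0.10 (SD, n = 5) in OVE26, against 13.03 ± 0.02 (SD, n = 4) in FVB arrays, and the transcription factor gene Wt1 averaged 10.51 ± 0.25 (SD, n = 5) in OVE26, against 10.91 ± 0.08 (SD, n = 4) in FVB arrays. Some markers of other cells had signal too. All 12 endothelial, all 11 mesangial and all 15 loop, distal tubule and collecting duct genes measured averaged above background in both groups. That bar is low by its definition. Of the last list Umod was bright, at 11.16 in OVE26 and 10.94 in FVB arrays, but Scnn1g (3.82) and Foxi1 (3.94) lay close to background in FVB arrays.

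None of the 18 member probe sets passed an adjusted p of 0.05 (limma, Benjamini-Hochberg over 45037 probe sets), where 0.271% of all probe sets did. At an unadjusted p under 0.05, 3 member probe sets passed, 2 of Lama5 and 1 of Agrn, all lower in OVE26. Of all 45037 probe sets, 3214 (7.14%, this direction alone) were lower in OVE26 at that level and 2968 were higher. The test was 2-sided, so both directions together are the background for the 3 member probe sets. Over the brightest probe set of each of 18193 genes, 14.5% passed in either direction. Differences of the member probe sets ran from -0.59 to 0.56, with 9 above 0 and 9 below. Their median was 0.04, beside -0.0061 over all probe sets. Lama5, Lamb2 and Agrn had lower OVE26 means on every probe set, and the nidogens had higher ones on every probe set above background. In sorted bulk RNA, fewer podocytes in a sort and less RNA per podocyte cannot be told apart.

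**Figure D1:**
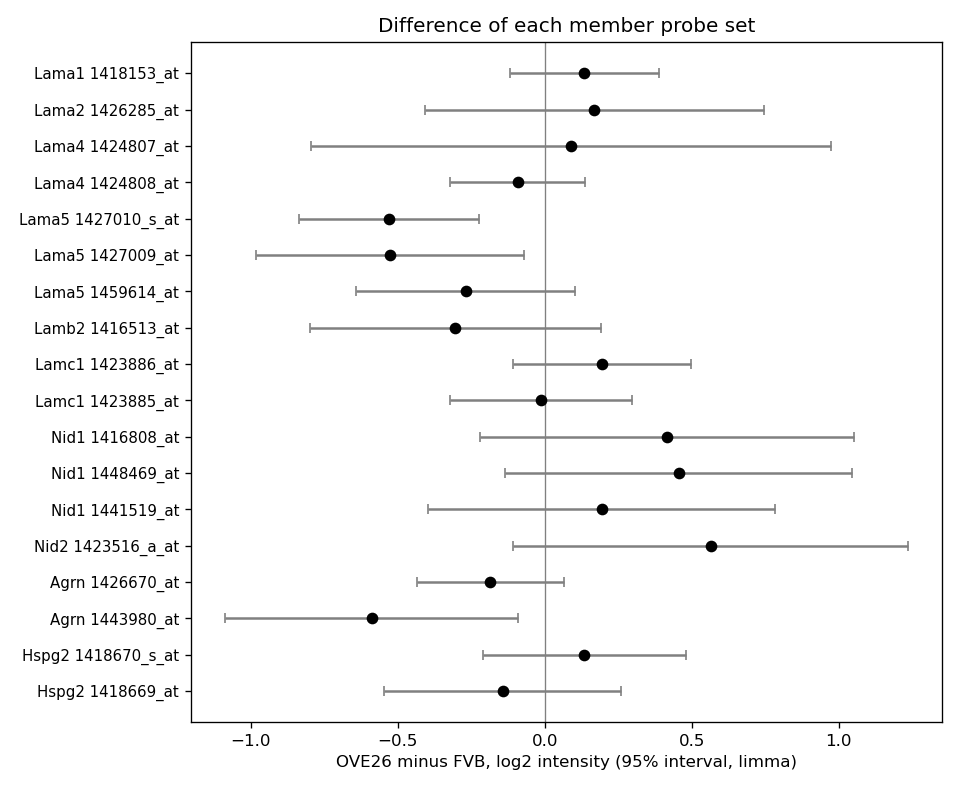
Differences of the 18 member probe sets, OVE26 minus FVB on the log2 scale (horizontal axis), with 95% intervals from limma. The intervals of 3 probe sets, 2 of Lama5 and 1 of Agrn, lie below 0, and none lies above 0.

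Lama5 encodes the alpha chain of the mature glomerular trimer. Its brightest probe set (1427010_s_at) read 9.998, 10.07, 9.69, 10.12 and 10.18 in OVE26 arrays 1 to 5, against 10.55, 10.28, 10.74 and 10.59 in FVB arrays 1 to 4. All 5 OVE26 arrays lay below all 4 FVB arrays. Lower levels in OVE26 without overlap were seen for 2.78% of all probe sets. In either direction, groups without overlap were seen for 2456 of 45037. The means were 10.01 ± 0.19 (SD, n = 5) in OVE26, against 10.54 ± 0.19 (SD, n = 4) in FVB arrays. The difference of -0.53 (SE 0.14, limma adjusted p = 0.144) corresponds to 69.3% of the FVB level, with a 95% interval from 56.0% to 85.6%. It missed the threshold, and so did it in all 9 fits with 1 array left out, where it ranged from -0.62 to -0.45.

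The second Lama5 probe set (1427009_at) read 8.19, 8.44, 7.64, 7.97 and 8.10 in OVE26, against 8.64, 8.06, 8.91 and 8.77 in FVB arrays. FVB 2 was inside the OVE26 range, and the other 3 FVB arrays lay above every OVE26 array. The difference was again -0.53 (SE 0.20, limma adjusted p = 0.295). The third (1459614_at) was dim, at 4.03 ± 0.32 (SD, n = 5) in OVE26, against 4.30 ± 0.11 (SD, n = 4) in FVB arrays, and differed by -0.27 (limma adjusted p = 0.526), or by -0.13 without OVE26 2. So the 3 Lama5 probe sets had the same sign. Within each group the array with the lowest level of the brightest probe set, OVE26 3 at 9.69 and FVB 2 at 10.28, was the one with the highest glomerular endothelial and mesangial scores. Those endothelial scores were 0.56 in both arrays, and the mesangial scores were 0.57 in OVE26 3 and 0.39 in FVB 2.

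Lamb2 encodes the beta chain of the same trimer, and its loss in humans causes congenital nephrotic syndrome with eye defects (Pierson syndrome). Its only probe set (1416513_at) read 9.72, 8.70, 9.13, 9.45 and 9.55 in OVE26, against 9.64, 9.50, 10.02 and 9.30 in FVB arrays. The groups overlapped, with OVE26 2 and OVE26 3 below every FVB array and FVB 3 above every OVE26 array. The difference was -0.31 (SE 0.22, limma adjusted p = 0.602), with a 95% interval from -0.80 to 0.19. Without OVE26 2 it was -0.15 (adjusted p = 0.843). OVE26 2, the lowest array for Lamb2, had the highest score of loop, distal and collecting duct markers (1.66). With that score in the model the Lamb2 difference was 0.53 (SE 0.23, limma adjusted p = 0.615). With the macrophage score it was -0.55 (SE 0.41, limma adjusted p = 0.599). Both scores separated the groups without overlap, so neither fit can tell score and group apart.

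Lamc1 encodes the gamma chain, shared by most laminin trimers. The brighter probe set (1423886_at) read 9.44, 9.59, 9.74, 9.73 and 9.66 in OVE26, against 9.57, 9.24, 9.73 and 9.21 in FVB arrays. FVB 2 and FVB 4 lay below all OVE26 arrays, while FVB 3 lay near the top of the OVE26 range. The difference was 0.19 (SE 0.14, limma adjusted p = 0.585), with an interval from -0.11 to 0.50. The other probe set (1423885_at) averaged 9.15 ± 0.20 (SD, n = 5) in OVE26, against 9.16 ± 0.19 (SD, n = 4) in FVB arrays. Its difference was -0.013, with an interval from -0.32 to 0.30.

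**Figure D2:**
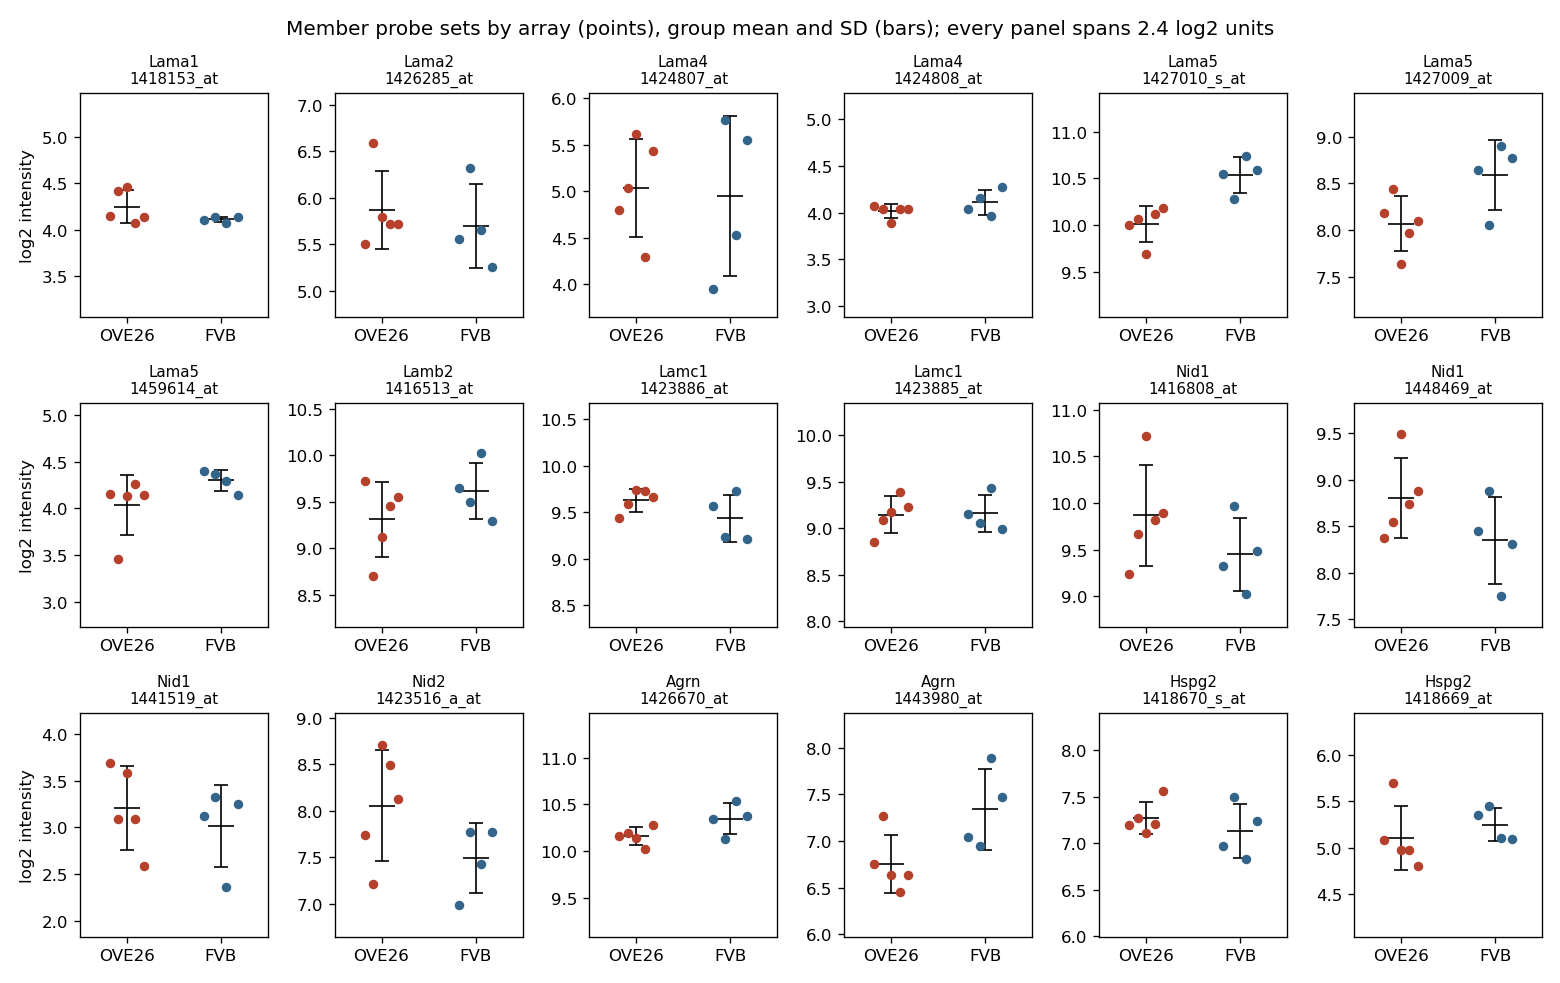
Log2 intensity (vertical axes, each spanning 2.4 units) of the 18 member probe sets in 5 OVE26 (red) and 4 FVB (blue) arrays, with the group mean and SD. The groups separate only for Lama5 1427010_s_at, where OVE26 arrays reach 10.18 at most and FVB arrays start at 10.28.

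Because the chains are assembled together, the level of each chain was also set against its partner within the same array, for 5 pairs of brightest probe sets. These differences show only whether the pair shifted unequally between groups, since probe sets differ in response. Lama5 minus Lamc1 was 0.56, 0.48, -0.047, 0.39 and 0.52 in OVE26, against 0.98, 1.04, 1.02 and 1.38 in FVB arrays. Every OVE26 value was below every FVB value. The means were 0.38 ± 0.25 (SD, n = 5) in OVE26, against 1.10 ± 0.19 (SD, n = 4) in FVB arrays. The difference of -0.72 had a 2-sided exact permutation p of 0.00794, the smallest the design can give, and an adjusted p of 0.0397 over the 5 pairs. The Lama5 probe set alone already separated the groups, at -0.53, and Lamc1 differed by 0.19, so the pair is not independent of Lama5. How many other pairs of genes separate the groups was not counted. Members were chosen with earlier results of these data known. The marker scores of macrophages (-0.18 to 0.60 in OVE26 and -0.56 to -0.24 in FVB), parietal epithelium (0.22 to 0.68 in OVE26 and -0.77 to -0.11 in FVB) and the distal nephron, meaning loop, distal and collecting duct markers (0.21 to 1.66 in OVE26 and -1.39 to -0.21 in FVB) also separated the groups without overlap. Their part in the result was not tested.

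The size and call of that result depended on the probe sets and the number of arrays. With the other Lamc1 probe set the difference was -0.52 (exact permutation p = 0.0159, adjusted p = 0.0794), and again all 5 OVE26 arrays lay below the FVB arrays. With the second Lama5 probe set it was -0.72 against the brighter Lamc1 probe set (exact permutation p = 0.0317) and -0.51 against the other (exact permutation p = 0.0952). With 1 array left out it ranged from -0.77 to -0.62. Each of those 9 fits gave the smallest exact permutation p its splits allow, 0.0286 with 4 OVE26 arrays or 0.0179 with 3 FVB arrays. The adjusted p passed only without FVB 2 (0.0446), where Agrn minus Hspg2 reached the same p and so lowered the adjustment. Otherwise it lay between 0.0714 and 0.143. No lower p was possible in those fits, so their misses do not show a weaker difference.

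The other pairs did not pass. Lamb2 minus Lamc1 was 0.29, -0.89, -0.61, -0.27 and -0.11 in OVE26, against 0.07, 0.26, 0.29 and 0.09 in FVB arrays. All OVE26 arrays but OVE26 1 lay below the FVB arrays, and the difference was -0.50 (exact permutation p = 0.0873, adjusted p = 0.218). Lama5 minus Lamb2 was -0.22 apart between the groups (exact permutation p = 0.333; 0.417 adjusted). That value was -0.39 without OVE26 2 (exact permutation p = 0.0286, the smallest those splits allow; 0.0714 adjusted) and -0.10 without FVB 4. The group difference was -0.15 for Nid1 minus Nid2 (exact permutation p = 0.603; 0.603 adjusted) and -0.32 for Agrn minus Hspg2 (exact permutation p = 0.167; 0.278 adjusted). With 1 array left out Nid1 minus Nid2 ranged from -0.31 without OVE26 2 to -0.023 without FVB 1. Agrn minus Hspg2 was -0.16 without FVB 3. Without FVB 2 it was -0.51, with all remaining FVB arrays above the OVE26 arrays (exact permutation p = 0.0179, adjusted p = 0.0446).

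**Figure D3:**
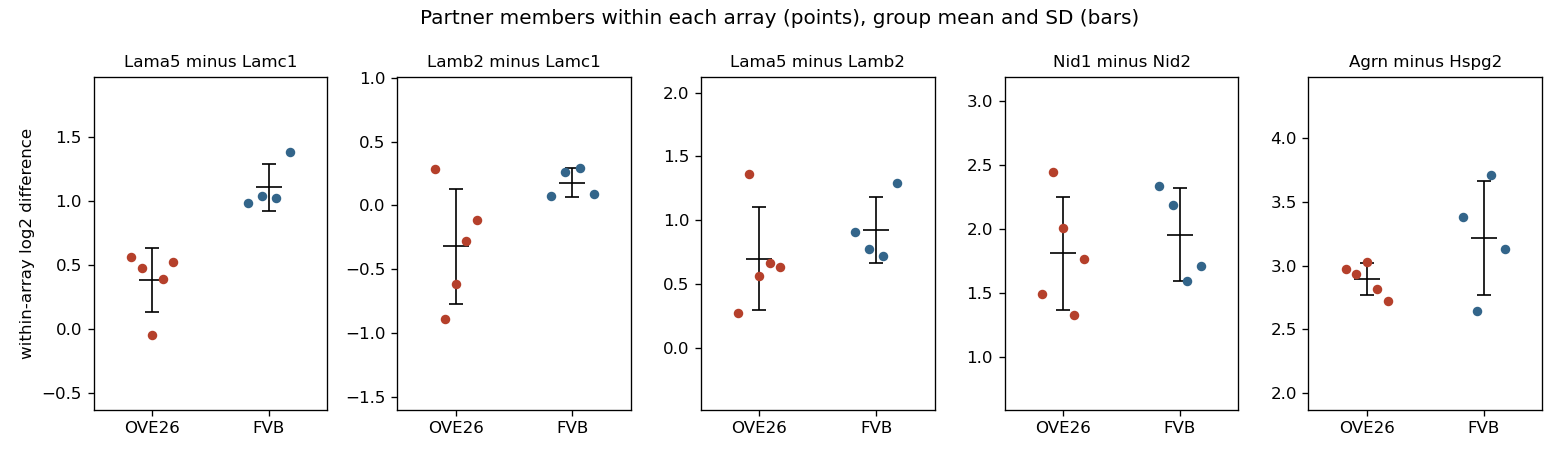
Within-array log2 differences between partner members (vertical axes, each spanning 2.6 units) in 5 OVE26 (red) and 4 FVB (blue) arrays, with group mean and SD. Lama5 minus Lamc1 is at most 0.56 in OVE26 and at least 0.98 in FVB arrays, and the other 4 pairs overlap.

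Lama1, Lama2 and Lama4 encode alpha chains that are minor or absent in the mature glomerular basement membrane. Lama1 is best known from embryonic and tubular basement membranes, Lama2 from muscle and Lama4 from vessels. Lama1 (1418153_at) was dim, at 4.14, 4.41, 4.46, 4.07 and 4.13 in OVE26, against 4.10, 4.13, 4.07 and 4.13 in FVB arrays. OVE26 2 and OVE26 3 stood highest, and the difference was 0.13 (limma adjusted p = 0.662). Lama2 (1426285_at) read 5.50, 6.59, 5.80, 5.72 and 5.72 in OVE26, against 5.55, 6.32, 5.65 and 5.26 in FVB arrays. One array in each group, OVE26 2 and FVB 2, stood above the rest. The Lama2 difference was 0.17 (limma adjusted p = 0.836), or -0.013 without OVE26 2 and 0.38 without FVB 2. It was -0.70 with the distal score in the model (SE 0.32) and 0.68 with the macrophage score (SE 0.45).

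Lama4 varied more within the groups than between them. Its brighter probe set (1424807_at) read 4.80, 5.04, 5.62, 4.30 and 5.44 in OVE26, against 3.95, 5.76, 4.53 and 5.55 in FVB arrays. The 2 highest FVB arrays, FVB 2 and FVB 4, also had the 2 highest endothelial scores of their group (0.56 and 0.26). The same held in OVE26 for OVE26 3 and OVE26 5 (0.56 and 0.10). The Lama4 difference was 0.09 (SE 0.40, limma adjusted p = 0.954), and its interval from -0.80 to 0.97 spans 57.6% to 196.4% of the FVB level. It was -0.47 with the macrophage score in the model (SE 0.73) and -0.57 with the distal score (SE 0.68). The other probe set (1424808_at) was dim and differed by -0.09 (limma adjusted p = 0.761).

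The nidogen genes Nid1 and Nid2, whose products link laminin to type IV collagen, had higher means in OVE26. Nid1 (1416808_at) read 9.23, 9.67, 10.72, 9.82 and 9.89 in OVE26, against 9.32, 9.97, 9.03 and 9.48 in FVB arrays. OVE26 3 stood highest, and the other 4 OVE26 arrays lay within the FVB range. The difference was 0.42 (SE 0.29, limma adjusted p = 0.576), or 0.20 without OVE26 3. The second bright Nid1 probe set (1448469_at) differed by 0.46 (SE 0.26, limma adjusted p = 0.496), also with OVE26 3 highest at 9.49. The third (1441519_at) was below background on average in both groups, and its difference is not read.

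Nid2 (1423516_a_at) read 7.74, 7.22, 8.71, 8.49 and 8.12 in OVE26, against 6.99, 7.78, 7.43 and 7.78 in FVB arrays. OVE26 3, 4 and 5 lay above every FVB array, and OVE26 1 and 2 lay within the FVB range. The difference of 0.56 (SE 0.30, limma adjusted p = 0.454) was the highest among the members, with an interval from -0.11 to 1.24. Without OVE26 2 it was 0.77 (adjusted p = 0.212). Markers of other cells moved with the nidogens. OVE26 3 and FVB 2, the highest Nid1 arrays of their groups, had the highest endothelial and mesangial scores of their groups. The macrophage score ran from -0.18 to 0.60 in OVE26 and from -0.56 to -0.24 in FVB arrays, with 3 of its 13 genes below background in OVE26 and 4 in FVB arrays, Itgam, Adgre1 and C1qc in both and C1qb in FVB only. That score separated the groups without overlap, so a fit with it cannot tell score and group apart. With it as a covariate the differences were -0.43 for Nid1 (SE 0.43, limma adjusted p = 0.715) and -0.50 for Nid2 (SE 0.39, limma adjusted p = 0.614). With the mesangial score they were 0.58 for Nid1 (limma adjusted p = 0.0839) and 0.69 for Nid2 (limma adjusted p = 0.231).

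Of the proteoglycan core proteins, agrin is the one most typical of the glomerular basement membrane. The bright Agrn probe set (1426670_at) read 10.16, 10.20, 10.14, 10.02 and 10.28 in OVE26, against 10.35, 10.13, 10.54 and 10.37 in FVB arrays. The 3 FVB arrays other than FVB 2 lay above every OVE26 array. The difference was -0.19 (SE 0.11, limma adjusted p = 0.512), and its interval from -0.44 to 0.06 corresponds to 74.0% to 104.5% of the FVB level. The dimmer Agrn probe set (1443980_at) read 6.75, 7.27, 6.64, 6.46 and 6.64 in OVE26, against 7.05, 6.95, 7.89 and 7.47 in FVB arrays. OVE26 2 alone lay inside the FVB range. It differed by -0.59 (SE 0.22, limma adjusted p = 0.282), the lowest difference among the 18 probe sets. With the macrophage score in the model that probe set differed by 0.19 (SE 0.29) and the bright one by -0.061 (SE 0.20, limma adjusted p = 0.932). Neither passed, and that score separated the groups, so score and group cannot be told apart.

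Perlecan's gene Hspg2 showed no shared sign over its probe sets. The brighter one (1418670_s_at) read 7.19, 7.27, 7.11, 7.20 and 7.56 in OVE26, against 6.97, 7.49, 6.83 and 7.24 in FVB arrays. The groups overlapped, and the difference was 0.13 (SE 0.16, limma adjusted p = 0.771). The other (1418669_at) differed by -0.14 (SE 0.18, limma adjusted p = 0.794), or by -0.29 without OVE26 2.

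Across arrays the members did not move as a block. Taking the brightest probe set of each of the 10 genes, OVE26 3 was the highest of all 9 arrays for 4 members (Lama1, Lamc1, Nid1 and Nid2) and the lowest for 1 (Lama5). FVB 3 was the highest for 3 (Lama5, Lamb2 and Agrn) and the lowest for 2 (Nid1 and Hspg2). These 2 arrays also lay at the ends of the macrophage score, at 0.60 in OVE26 3 and -0.56 in FVB 3. The podocyte score was -0.28 in OVE26 3 and 0.33 in FVB 3, and over the groups it ran from -0.40 to 0.14 in OVE26 and from 0.05 to 0.33 in FVB arrays. Of its 13 genes all but Cdkn1c (0.07) had lower means in OVE26, and none passed. The largest differences were -0.65 for Lmx1b, -0.56 for Kirrel and -0.50 for Nphs1, beside -0.53 for the brightest Lama5 probe set. Adding the macrophage score to the model gave a Lama5 difference of -0.26 for the brightest probe set (SE 0.24, limma adjusted p = 0.679). For the second it gave 0.17 (SE 0.27, limma adjusted p = 0.837). Adding the distal score gave -0.34 for the brightest (SE 0.24, limma adjusted p = 0.730), whose SE was 0.14 without a score. Both scores separated the groups without overlap, so these fits cannot tell score and group apart. With the endothelial score the brightest probe set differed by -0.55 (limma adjusted p = 0.0832).

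**Figure D4:**
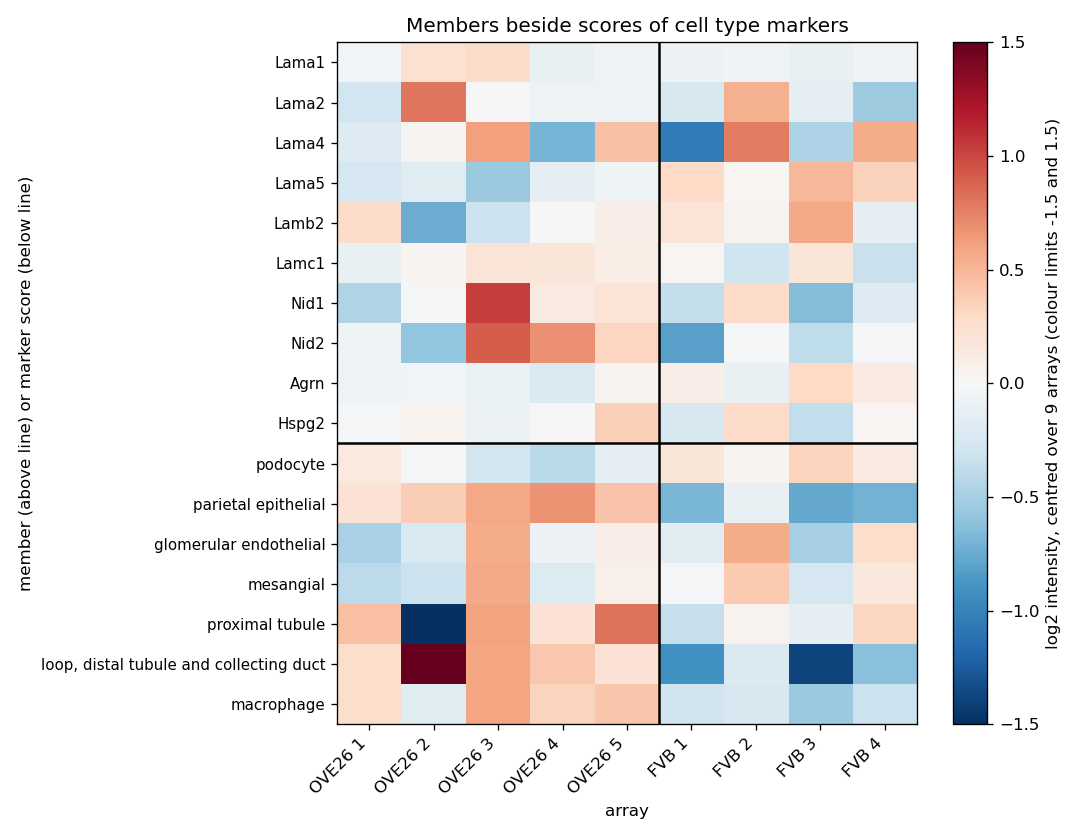
Centred log2 intensity (colour, clipped at -1.5 and 1.5) of the brightest probe set of each member and of 7 marker scores in the 9 arrays. In OVE26 3 the members Nid1 and Nid2 are high and Lama5 is low, and in FVB 3 Lama5 and Lamb2 are high and Nid1 is low.

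Related genes were counted over the brightest probe set per gene, where 0.357% of 18193 genes passed and the median difference was 0.013. None passed on any of the 5 lists by limma, and 14 of the 72 list genes measured had an unadjusted p below 0.05, where 14.5% of all genes did. Of the other laminin chains 4 of 5 were measured, with a median difference of 0.11. Lamb1, the beta chain of the immature glomerular trimer, read 9.32, 9.86, 10.15, 9.48 and 9.56 in OVE26, against 8.76, 9.73, 7.95 and 8.49 in FVB arrays. FVB 2 alone was inside the OVE26 range, and the difference was 0.94 (SE 0.32, limma adjusted p = 0.236). Its other bright probe sets differed by 1.21 (limma adjusted p = 0.153) and 1.02 (limma adjusted p = 0.160). Lamb3, a beta chain of epidermal laminin, and Lamc3 were dim, at 4.15 and 4.12 in FVB arrays. Lamb3 differed by 0.37 (limma adjusted p = 0.253) and Lamc3 by -0.17 (limma adjusted p = 0.762).

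Of 13 receptor and linker genes, 9 differences were above 0 and the median was 0.15. Itga3, the alpha subunit of the main podocyte laminin receptor, differed by -0.36 (limma adjusted p = 0.344), and Itga6, an alpha subunit of other laminin-binding integrins, by 0.65 (limma adjusted p = 0.377). Musk, a muscle kinase of the agrin pathway, averaged 3.65 in OVE26 and 3.30 in FVB arrays, where the FVB mean was below background, and its difference is not read. Of 20 other basement membrane components 11 were above 0, with a median of 0.06. Papln, the papilin gene, was dim, at 4.72 in OVE26 and 3.99 in FVB arrays, and differed by 0.73 (limma adjusted p = 0.156). Sparc, a collagen-binding glycoprotein gene, differed by 0.27 (limma adjusted p = 0.261) and Pxdn, whose peroxidase crosslinks type IV collagen, by -0.31 (limma adjusted p = 0.365).

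The heparan sulphate chains carried by agrin and perlecan are built and edited by a shared set of enzymes. Of 25 such genes measured 10 differences were above 0 and 15 below, with a median of -0.04. Sulf2, a sulphatase that removes 6-O-sulphate groups outside the cell, averaged 9.70 ± 0.09 (SD, n = 5) in OVE26, against 9.17 ± 0.30 (SD, n = 4) in FVB arrays, with no overlap (limma adjusted p = 0.154). Groups without overlap, in either direction, were seen for 1138 of 18193 genes. Of the 72 list genes measured, Lamb3, Musk, Rpsa, Sparc, Hs3st3a1, Ext1 and Gpc6 had no overlap either. Genes discussed singly were picked by smallest p, which favours groups without overlap, so their separation is no added evidence. The 3-O-sulphotransferase genes Hs3st3a1 and Hs3st3b1 differed by -0.83 (limma adjusted p = 0.244) and -0.40 (limma adjusted p = 0.237). Of 10 syndecans and glypicans, the cell surface carriers of these chains, 5 were above 0 and 5 below. Sdc1, the syndecan of epithelia and plasma cells, differed by 0.97 (limma adjusted p = 0.146), the glypican gene Gpc6 by 1.03 (limma adjusted p = 0.204) and Gpc4 by 0.36 (limma adjusted p = 0.229).

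**Figure D5:**
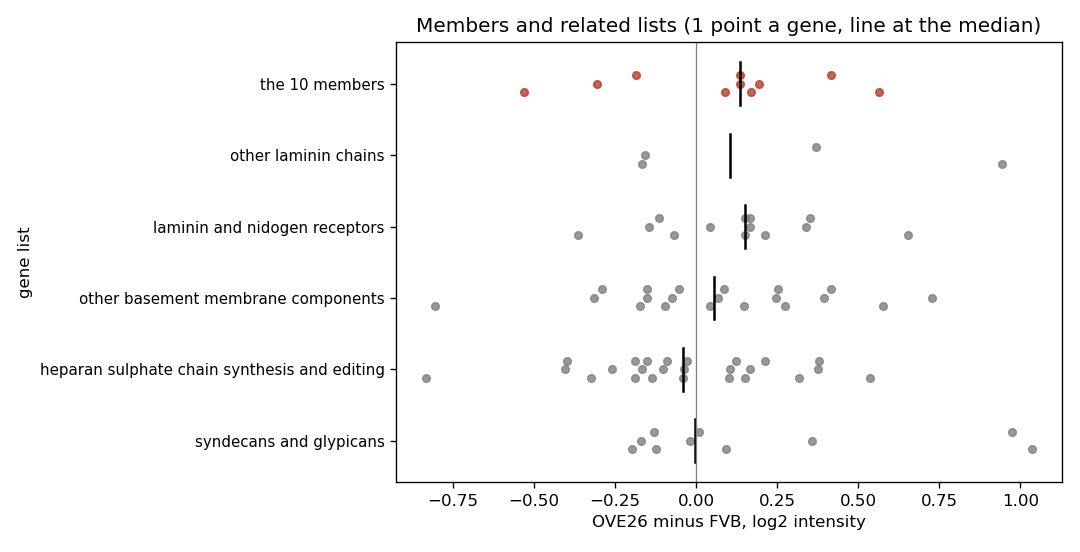
Differences, OVE26 minus FVB on the log2 scale (horizontal axis), of the brightest probe set per gene for the 10 members (red) and 5 related lists (grey), with a line at each median. Points lie on both sides of 0 in each list, and Lamb1 (0.94), Sdc1 (0.97) and Gpc6 (1.03) stand farthest to the right.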

How the data were processed

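Expression was measured on 9 single-colour arrays of biotin-labelled RNA from podocytes of 5 OVE26 and 4 FVB mice. The authors deposited 1 intensity per probe set, linear by its range, made with RMA and Partek, per the submitters' processing notes, which name no version. Here log2 was taken of the deposited intensities. Of 45101 probe sets, 64 controls were left out. The platform annotation gave 1 symbol for 34945 probe sets, and the gene IDs of all 10 members matched the reference table with the same symbol. A filter at the 40th percentile of mean level, used only as an alternative, kept 14 of the 18 member probe sets and 9 members.

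The group term was fitted in limma 3.58.1 under R 4.3.3 (empirical Bayes moderation, all 9 arrays, 2-sided, prior degrees of freedom 2.91) over 45037 probe sets, with Benjamini-Hochberg adjustment and a threshold of 0.05. The fit was tested on simulated data. It recovered 48 of 100 changes of 1 log2 unit and 89 of 100 changes of 2, with 5 false calls. Every member difference was smaller than 1 unit, and changes of that size were not simulated. Partner members were compared by exact permutation over all splits of the 9 arrays into 5 and 4. Members, lists and alternatives were chosen with earlier results of these data known. The text names all members, the 3 genes of smallest p per related list, and Podxl, Nphs1, Synpo and Wt1 as checks. It also names list genes without overlap and some marker genes. Alternatives were other normalizations, filters, weights, variance models, probe set rules, marker scores as covariates, a replicate block and leaving out each array. The mice are labelled as separate, and sex, batch and scan date are not given in the labels. The number of arrays limits the precision. No 2 arrays shared more than 4.08% of identical values.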

Additional observations from a re-analysis of the deposited data

Results flagged for a closer look

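In 46 groups of 4 or 5 values (18 probe sets and 5 partner differences in each group) 5 held an array far from the others, where chance gives about 1 in 20. In OVE26 2, Lama2 read 6.59 when the next OVE26 array was at 5.80, and the dim Lama5 probe set 1459614_at read 3.46 when the next was at 4.13. In OVE26 3, the dim Lama4 probe set 1424808_at read 3.89 when the next was at 4.04, and Lama5 minus Lamc1 was -0.047 when the next was at 0.39. In FVB 4, Lama5 minus Lamc1 was 1.38 when the next FVB array was at 1.04. These 2 partner values lie on the side away from the other group, and without OVE26 3 or FVB 4 the group difference was -0.62 or -0.63.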

How the results depend on the processing

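No member probe set passed under any of the 22 alternatives with their own fit (0 of 376 fitted differences; limma), and at a threshold of 0.1 none passed either. The sign turned in 29 of the 376. With the macrophage score as a covariate it turned for Lama4 1424807_at (-0.47), Lama5 1427009_at (0.17), Nid1 (-0.43 for both bright probe sets and -0.22 for 1441519_at), Nid2 (-0.50), Agrn 1443980_at (0.19) and Hspg2 (-0.0070 for 1418670_s_at and 0.36 for 1418669_at). With the score of loop, distal and collecting duct markers it turned for Lama1 (-0.079), Lama2 (-0.70), Lama4 1424807_at (-0.57), Lama5 1459614_at (0.21), Lamb2 (0.53), Lamc1 1423885_at (0.18), Nid1 1441519_at (-0.19) and Hspg2 1418670_s_at (-0.093). With probe sets averaged per gene it turned for Lama4 (-0.0017) and Hspg2 (-0.0046). The macrophage and distal scores separated the groups without overlap, so fits with either cannot tell score and group apart. The cause was not tested. With 1 array left out, differences ranged over 0 for Lamc1 1423885_at (-0.073 to 0.079), Lama2 (-0.013 to 0.38), Lama4 1424807_at (-0.25 to 0.36) and Nid1 1441519_at (-0.023 to 0.35).

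Mouse numbers 1 to 4 occur in both groups and only name mice, and deviations of same-numbered arrays correlated by -0.18 to 0.11. The replicate block, with mouse number as a term, turned Lama4 1424807_at to -0.011 and called 0 probe sets higher and 0 lower of all tested (limma). With that block Lama5 minus Lamc1 was -0.76 (exact permutation p = 0.125, the smallest that 4 pairs allow). Lama5 minus Lamc1 also missed the adjusted threshold with the mean of probe sets (-0.53, exact permutation p = 0.0159, adjusted p = 0.0794) and with 3 other probe set combinations added after the data were seen (-0.52, -0.72 and -0.51), and ranged from -0.77 to -0.62 with 1 array left out. In the same 9 fits Agrn minus Hspg2 ranged from -0.51 to -0.16.

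Of all probe sets, 88 were called higher and 34 lower. The counts were 218 and 122 with array weights, 0 and 0 with the distal covariate, 0 and 1 with the macrophage covariate, 175 and 59 with the endothelial covariate, 137 and 72 with the proximal covariate, and 249 and 151 at a threshold of 0.1. The mesangial covariate gave 141 higher. With 1 array left out they ranged from 0 to 323 higher and from 0 to 101 lower.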
